A study of Mus musculus with 4 samples.

Results

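The genes described here are 34 genes of cholesterol and fatty acid synthesis, taken by symbol from a list of enzymes and regulators under control of the sterol regulatory element binding proteins (SREBPs). Each of the 34 symbols matched 1 row among the 27998 genes of the deposited tables. By role they are 4 regulators (Srebf2, Scap, Insig1, Insig2), 8 genes of the mevalonate arm, 11 genes of the steps from squalene to cholesterol, 1 sterol carrier (Stard4) and 10 genes of fatty acid synthesis. They were read in 4 droplet single-cell RNA libraries of mouse liver immune cells, 2 from C57BL/6J mice labelled with a control diet and 2 from C57BL/6J mice labelled nash-amln, the Amylin liver NASH model diet that brings about nonalcoholic steatohepatitis (NASH), a fatty, inflamed and scarring liver. Non-parenchymal cells were sorted for CD45, carried by leukocytes, and against CD146, carried by endothelial cells, after perfusion and digestion with flavopiridol, which blocks transcription. The study addressed the diversity of myeloid cells in NASH. The sources used here do not state the age of the mice, the time on diet or whether each library came from its own mouse, so each p-value measures the spread between libraries, which may be technical.

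Cholesterol is built from acetyl units. The mevalonate arm makes the isoprenoid farnesyl diphosphate, squalene synthase commits it to sterols, and a chain of membrane enzymes turns squalene into cholesterol, while acetyl units made by ATP citrate lyase also feed fatty acid synthesis. SREBP-2, encoded by Srebf2, is carried by the escort protein Scap to the Golgi when membrane sterol is low and then switches on most of these enzymes. The Insig proteins hold Scap back when sterol is high, and Insig1 is itself an SREBP target. Macrophages of the liver take up lipoprotein and cell debris and so receive much of their cholesterol from outside.

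The 4 libraries held 1550 to 1933 barcodes and 5513953 to 15619962 unique molecular identifiers (UMIs, 1 per captured transcript). Median depth differed by diet, at 2573 and 3064.5 UMIs for control and 7344 and 7447 for NASH barcodes. The median mitochondrial share was 6.23% and 6.43% against 3.21% and 3.43%. Pairs of libraries shared 2 to 8 barcodes. The filter on genes and mitochondrial share removed 14.8% and 20.4% of control and 2.87% and 2.38% of NASH barcodes. With putative doublets removed as well, 6158 cells were left. Macrophage-like cells, defined by detection of C1qa, C1qb and C1qc in nearly every cell of a cluster, numbered 973 and 871 on control and 740 and 1028 on NASH diet, with 2741973 to 8192896 UMIs per library. The sort against CD146 and for CD45 was not complete in these data, since clusters with endothelial markers (15 to 105 cells per library) and 1 cluster with hepatocyte markers (10 cells, all in control library 1) were found.

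In macrophage-like cells, 8 of the 29 members that passed the filter on low counts were higher in NASH (27.6%) and 3 were lower (10.3%). Of all 10319 genes tested in these cells, 23.1% were higher and 21.1% lower, so the share of members that were higher lies near the background and the share that were lower is below it. The median log2 difference was 0.39 over the members and -0.02 over all genes. The 8 that rose were Fdps, Dhcr7, Cyp51, Nsdhl, Msmo1, Pmvk, Ebp and Scd2, and 7 of them make isoprenoids or sterols. The 3 that fell were Acly and Elovl5, of fatty acid synthesis, and Insig1. Values in this comparison are scaled CPM, the usual depth-normalised UMI count, taken over the library's macrophage-like total after TMM scaling, and p-values come from the quasi-likelihood test of edgeR, adjusted after Benjamini and Hochberg over all genes tested. Sqle, Hsd17b7, Elovl6, Fads2 and Me1 held too few UMIs to pass the filter on low counts. Without that filter edgeR tested all 34 members, with 10 higher (29.4%) and 3 lower (8.82%), against 17.8% and 13.8% of all genes. The calls gained were those of Idi1 and of Sqle, which had 0 control UMIs.

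Of the 4 regulators, 1 fell and none rose, where 21.1% of all genes tested fell and 23.1% rose. Insig1, which retains Scap in the endoplasmic reticulum and lies at chr5:28071363-28078662 (GRCm38, plus strand), stood at 55.6 and 61.4 scaled CPM on control and at 33.4 and 20.7 on NASH diet. Both NASH libraries lay below both control libraries, with a log2 difference of -1.12 (SE 0.22, adjusted p = 0.00243). Its paralog Insig2 held 27.0 and 23.7 scaled CPM in control and 24.9 and 22.6 in NASH, values that overlapped (log2 -0.10, SE 0.17, adjusted p = 0.669). Srebf2, the gene of SREBP-2, held 18.5 and 20.5 scaled CPM in control and 19.5 and 13.9 in NASH, again with overlap (log2 -0.23, SE 0.22, adjusted p = 0.413). Scap overlapped between the diets as well, at 12.03 to 14.6 scaled CPM over the 4 libraries.

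Of the 8 mevalonate arm genes, 2 rose and none fell, with a median log2 difference of 0.53. Since 23.1% of all genes rose, the count of rises lies near the background. Fdps, which makes farnesyl diphosphate and lies at chr3:89093588-89101959 (minus strand), showed the largest log2 difference of the tested members. It held 4.16 and 6.08 scaled CPM on control and 29.5 and 21.5 on NASH diet, from 16, 19, 167 and 156 UMIs. The libraries of the 2 diets were far apart, with a log2 difference of 2.33 (SE 0.28, adjusted p = 0.000103). Pmvk, which phosphorylates mevalonate phosphate, rose from 19.2 and 14.4 to 30.8 and 32.6 scaled CPM (log2 0.90, SE 0.19, adjusted p = 0.00282). Hmgcs1, the synthase that makes HMG-CoA and a textbook SREBP-2 target, did not pass the test: it held 16.1 and 21.1 scaled CPM in control and 22.3 and 14.5 in NASH (log2 -0.02, SE 0.25, adjusted p = 0.955). Idi1, which isomerises the isoprenoid unit, lay above in both NASH libraries (9.20 and 6.21 against 1.82 and 5.76 scaled CPM) without passing the test (log2 1.06, SE 0.46, adjusted p = 0.0866). Acat2, Mvk, Mvd and Ggps1 did not pass, at log2 differences of 0.09 to 0.59, and Acat2 reads may be shared with a near-identical neighbour gene.

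The steps from squalene to cholesterol held most of the rises, with 5 of 9 tested genes higher, none lower and a median log2 difference of 0.93. Among all genes tested, 23.1% were higher and 21.1% lower. Dhcr7, which makes the last reduction of one branch and lies at chr7:143823145-143848410 (plus strand), rose from 4.16 and 4.80 to 14.9 and 15.5 scaled CPM (log2 1.76, SE 0.27, adjusted p = 0.000387). Ebp, the sterol isomerase, rose from 45.0 and 44.2 to 71.3 and 72.0 scaled CPM (log2 0.68, SE 0.14, adjusted p = 0.00248). In both genes the libraries of a diet lay close together and far from the other diet. Msmo1, the oxidase that starts removal of the C4 methyl groups, rose from 12.2 and 10.9 to 24.4 and 19.2 scaled CPM (log2 0.90, SE 0.22, adjusted p = 0.00594). Nsdhl, a dehydrogenase of the same demethylation, rose from 4.68 and 4.48 to 9.55 and 9.25 scaled CPM (log2 1.03, SE 0.29, adjusted p = 0.0144). Cyp51, the lanosterol demethylase, rose from 3.90 and 7.999 to 13.1 and 11.05 scaled CPM (log2 1.05, SE 0.32, adjusted p = 0.0216). Dhcr7, Msmo1, Nsdhl and Cyp51 rest on few control UMIs, 14 to 47 per library, with 16 and 15 for Dhcr7. Fdft1, Lss, Tm7sf2 and Sc5d did not pass, at log2 differences of 0.10 to 1.26. Sqle, the epoxidase that opens this branch, had 0 UMIs of 6137493 in control macrophage-like cells and 31 of 14708267 in NASH. As CPM of the class total, without TMM factors, that is at least 4.31-fold higher in NASH, against a floor of 3 counts over the control group.

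Stard4, a carrier of cholesterol between membranes, was the sterol transport gene and overlapped between the diets, at 5.46 and 11.8 scaled CPM in control and 12.2 and 8.56 in NASH (log2 0.28, SE 0.36, adjusted p = 0.545).

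Of the 7 tested fatty acid genes, 2 fell and 1 rose, with a median log2 difference of -0.05. Among all genes tested, 21.1% fell and 23.1% rose. Acly, ATP citrate lyase at chr11:100476353-100528000 (minus strand), fell from 262 and 156 to 97.5 and 93.6 scaled CPM (log2 -1.13, SE 0.23, adjusted p = 0.00482). The 2 control libraries differed from each other more than the NASH libraries did, and both lay above them. Elovl5, which lengthens polyunsaturated fatty acids, fell from 57.2 and 56.0 to 42.8 and 35.9 scaled CPM (log2 -0.53, SE 0.15, adjusted p = 0.0168). Scd2, a desaturase that makes monounsaturated fatty acids, rose from 66.6 and 54.1 to 103 and 74.4 scaled CPM (log2 0.55, SE 0.18, adjusted p = 0.0320), and its reads may be shared with its close paralogs. Fasn, which makes palmitate, held 4.94 and 4.80 scaled CPM in control and 8.14 and 6.21 in NASH and did not pass (log2 0.54, adjusted p = 0.187). Acaca, Fads1 and Acsl3 did not pass either, at log2 differences of -0.34 to 0.33.

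**Figure D1:**
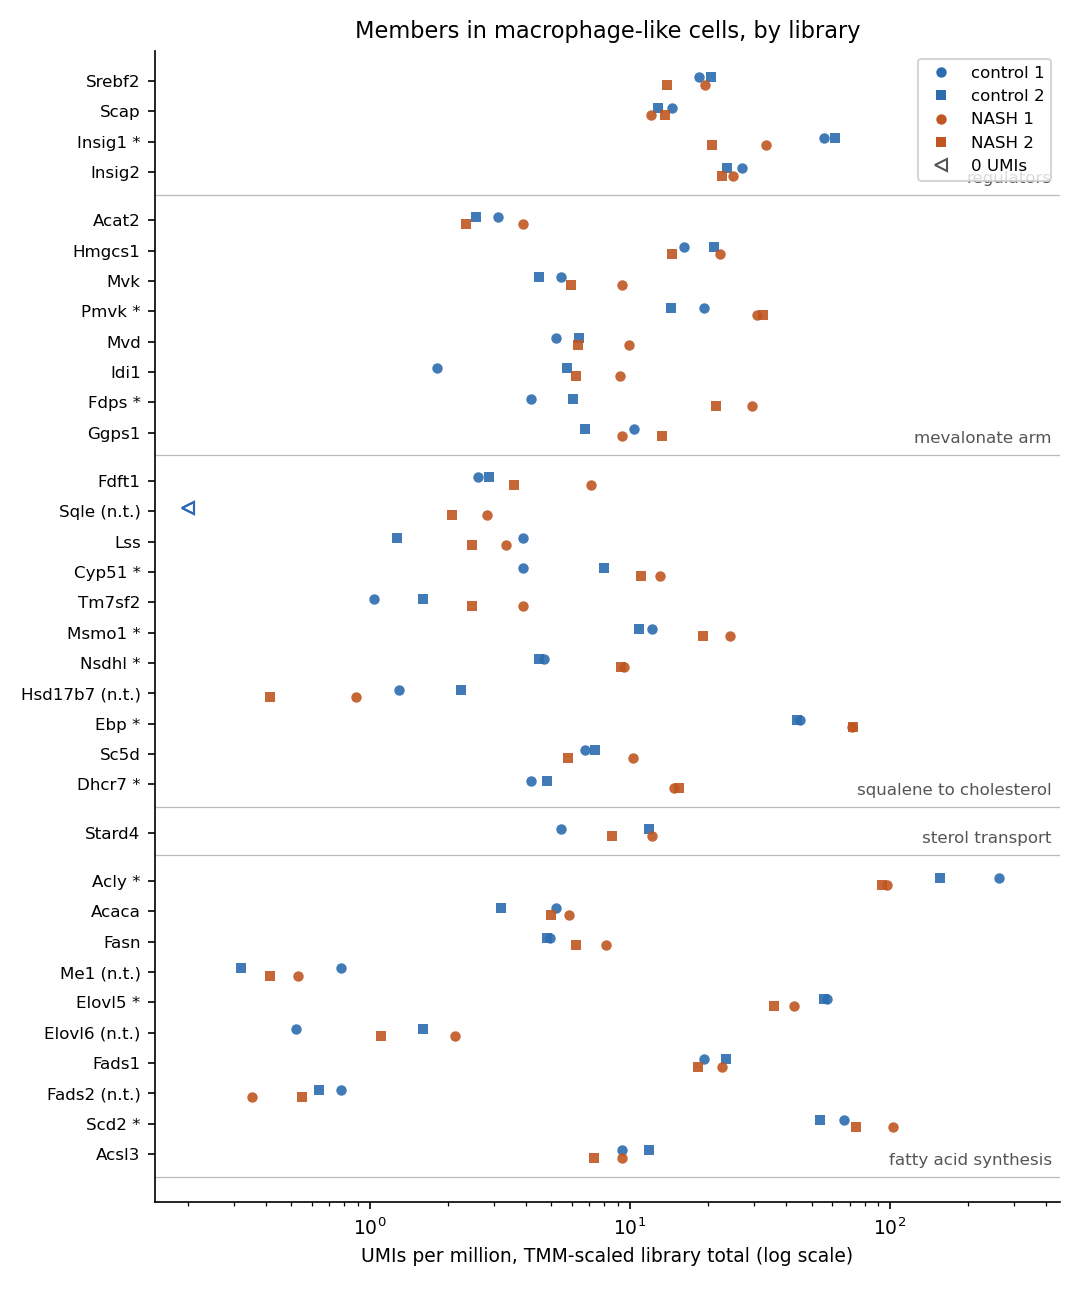
Scaled CPM of each member in macrophage-like cells (log axis), with 1 point per library, control in blue and NASH in orange. Genes are grouped by role, a star marks a gene past the test, n.t. a gene not tested, and an open triangle a library with 0 UMIs. The NASH points of Fdps and Dhcr7 lie to the right of all control points and those of Acly and Insig1 to the left.

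The scaling bears on these counts, because the TMM factors were 1.14 for both control libraries but 0.87 and 0.89 for NASH. Without factors the median of all genes moved by -0.375 on the log2 scale, and the share of higher genes among all calls went from 52.3% to 24.6%. Under that scaling 3 members were higher (Fdps 1.95, Dhcr7 1.39 and Pmvk 0.53 on the log2 scale) and 6 were lower, namely Acly, Insig1 and Elovl5 together with Insig2 (-0.48), Srebf2 (-0.61) and Acsl3 (-0.72). These are 10.3% and 20.7% of the 29 members, where 12.7% of all genes were higher and 38.9% lower under that scaling. Ebp, Msmo1, Nsdhl, Cyp51 and Scd2 kept a positive difference without factors but lost their calls (adjusted p = 0.0601 to 0.438).

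**Figure D2:**
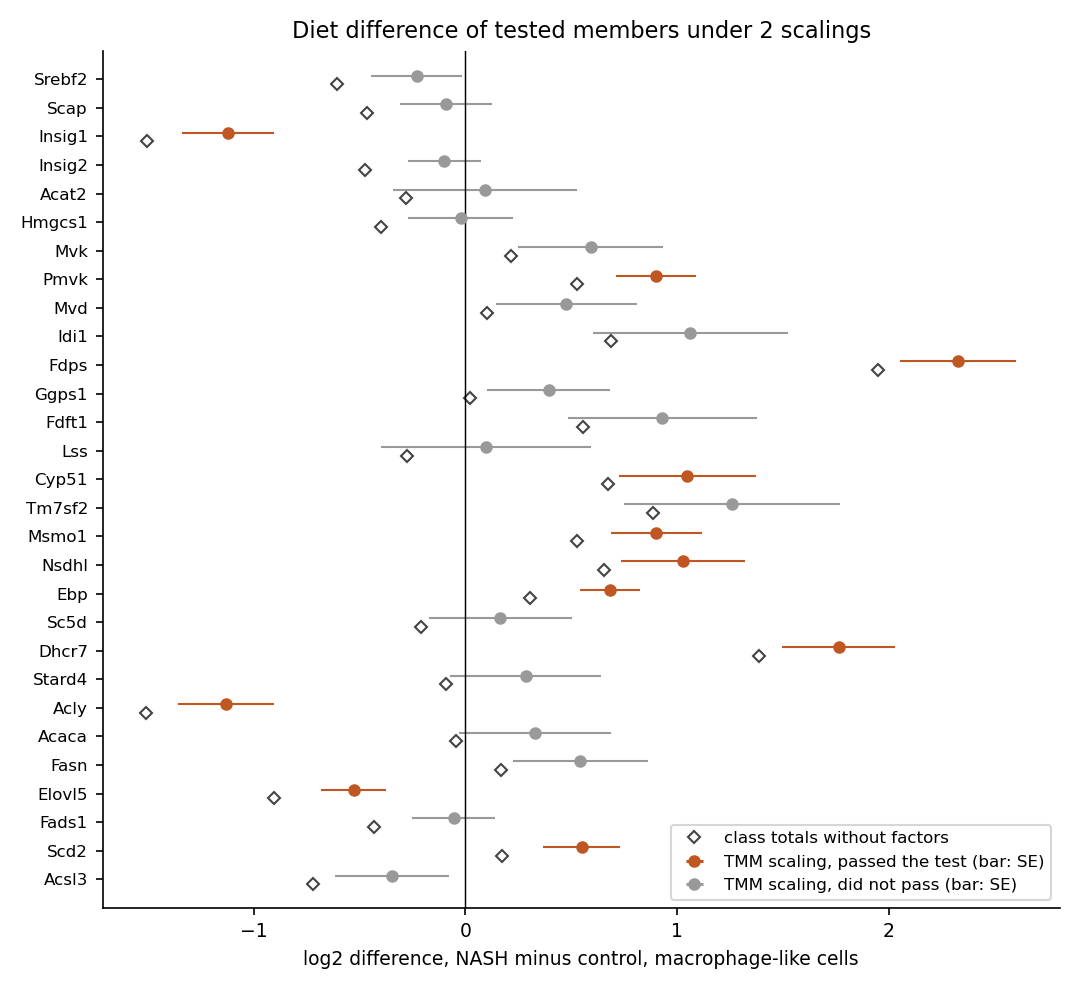
Log2 difference, NASH minus control, of the 29 tested members in macrophage-like cells, with TMM scaling (filled points, orange where past the test, bars are SE) and with class totals without factors (open diamonds). Each diamond lies left of its point, and Lss, Sc5d, Acat2, Stard4 and Acaca change sign between the scalings.

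Single libraries decided several of the smaller differences. Leaving out 1 library leaves 1 library of that diet, and calls over all genes also became fewer. Without NASH library 1 the calls of Msmo1, Nsdhl, Cyp51 and Scd2 were lost. Cyp51 was also lost without control library 1, Cyp51 and Nsdhl without NASH library 2, Scd2 without control library 2 and Elovl5 without NASH library 2. The calls of Fdps, Dhcr7, Pmvk, Ebp, Acly and Insig1 were kept when each library in turn was left out. A stricter cell filter (at least 500 genes, at most 5% mitochondrial counts) lost those of Pmvk (adjusted p = 0.0712), Nsdhl (0.0840) and Elovl5 (0.246). It fell mostly on control cells: those left lay mainly in 1 macrophage-like cluster with 208 and 203 of them, where 973 and 871 macrophage-like control cells were kept before. DESeq2 did not call Scd2 (adjusted p = 0.0597), Cyp51 (0.119), Elovl5 (0.142) or Nsdhl (0.147).

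Macrophage-like cells of the 2 diets lay in different clusters, which no member helped to draw because the members were left out of the genes used for clustering. Control cells lay mostly in a cluster led by Cd163 (803 and 95 cells) and one led by Marco (120 and 703 cells). NASH cells lay in clusters led by Folr2 (157 and 316 cells), Mmp12 (297 and 333) and Cx3cr1 (284 and 376), so diet and cluster cannot be told apart for most of these cells. In the Kupffer-like clusters alone, those with Clec4f and Vsig4 detected in at least 80% of cells, 7 of 27 tested members were higher (25.9%) and 3 lower (11.1%), where 21.4% of all genes were higher and 18.1% lower, with Fdps at a log2 difference of 2.53, Dhcr7 at 1.82, Acly at -0.83 and Insig1 at -0.94. Within the cluster led by Folr2, which held 37 and 40 control cells, and within that led by Cx3cr1, with 13 and 31, no member of 14 and of 21 tested passed edgeR's test (1 and 2 members had an unadjusted p under 0.05). Few genes of any kind passed there, 0.301% higher and 1.05% lower in the first cluster and 1.26% and 1.14% in the second, so these counts of 0 lie near the background. DESeq2 was not run within single clusters.

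RNA of other liver cells moved with the diet in macrophage-like cells. The 17 hepatocyte genes of a fixed list summed to 1512 and 1448 CPM of the class total on control and to 683 and 515 on NASH diet, 13 of the 17 were lower in NASH and none higher, and each had at least 1 UMI. Trf, the gene of transferrin, did not pass (adjusted p = 0.159), and without it the sums were 715 and 871 against 227 and 127. The 12 endothelial genes summed to 221 and 254 against 87.0 and 79.2, with 6 of 11 tested lower. In the cluster of 10 hepatocyte-like cells Elovl5 had 8 UMIs and Insig2 had 33 of 28334, while Acly and Insig1 had 1 UMI each and Scd2 none. The part of carried-over RNA in the fall of Elovl5 was not tested. Of 9 tested cell cycle genes 2 were higher and 2 lower, and the 10 listed summed to 91.9 to 109 CPM over the 4 libraries.

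Other genes of the pathway, which are not among the 34, were divided in macrophage-like cells: of 25 on a fixed list 21 were tested, 3 were higher and 3 lower, with a median log2 difference of 0.04. Higher in NASH were Elovl1, an elongase of long saturated chains (log2 0.60, SE 0.14, adjusted p = 0.00577), Cyb5r3, a reductase that feeds electrons to desaturases (log2 0.47, SE 0.14, adjusted p = 0.0164), and Fabp5, a fatty acid binding protein (log2 5.33, SE 0.66, adjusted p = 0.00911). Lower were Lbr, a lamin receptor with sterol reductase activity (62.4 and 60.5 against 22.6 and 23.2 scaled CPM, log2 -1.42, SE 0.15, adjusted p = 5.80e-05), Acsl4 (log2 -1.20, SE 0.14, adjusted p = 7.65e-05) and Acsl1 (log2 -0.69, SE 0.21, adjusted p = 0.0215), which activate fatty acids. Among 16 tested genes of a list of LXR targets and sterol efflux, LXR being a receptor of oxidised sterol, 8 were higher and 3 lower, with a median of 0.35. The 3 that fell were Abca1, the cholesterol exporter (log2 -0.61, SE 0.15, adjusted p = 0.00786), Nr1h3, the gene of the receptor LXR alpha (log2 -0.63, SE 0.15, adjusted p = 0.00652), and Mylip, a ubiquitin ligase (log2 -0.69, SE 0.20, adjusted p = 0.0186). The 8 that rose were Abcg1, a second exporter (log2 0.41, SE 0.14, adjusted p = 0.0307), Npc2, Apoe, Pltp, Lpcat3, Lipa, Lpl and Cd36. Beside the counts of both lists, 23.1% of all genes tested were higher and 21.1% lower.

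Within the NASH livers, members were compared between Kupffer-like clusters and the other macrophage-like cells, which are those of the cluster led by Cx3cr1, with the library as block. The Kupffer-like side pools mainly the clusters led by Folr2 and by Mmp12, which differ in detection of Timd4 (45.5% and 15.0% of cells) and Gpnmb (12.9% and 58.7%). At Leiden resolution 2.0 a cluster of 340 cells led by Mmp12 missed the 80% limit, with Clec4f in 79.4% of cells. The contrast was not repeated with other clusterings. Of 27 tested members 5 were higher in Kupffer-like cells (18.5%) and 1 was lower (3.7%), where 12.4% of all 9447 genes tested were higher and 10.9% lower. The member median was 0.18 and that of all genes -0.01. Acly held 108 and 102 scaled CPM in Kupffer-like cells and 48.4 and 47.6 in the other macrophages (log2 1.12, SE 0.11, adjusted p = 1.51e-22). Scd2 held 113 and 83.1 against 52.5 and 33.9 (log2 1.19, SE 0.11, adjusted p = 1.50e-23). For both genes each Kupffer-like value lay above both others. Hmgcs1 held 23.9 and 15.0 against 12.2 and 8.71 scaled CPM (log2 0.88, SE 0.22, adjusted p = 0.000752). Insig1 held 33.4 and 21.3 against 22.4 and 12.7, an overlap between libraries but a higher value in Kupffer-like cells of each library (log2 0.65, SE 0.18, adjusted p = 0.00254). Fdps lay nearest the threshold, at 30.4 and 19.9 against 18.3 and 17.1 scaled CPM (log2 0.48, SE 0.18, adjusted p = 0.0412), and its call was lost with upper-quartile factors (adjusted p = 0.0715). Ebp went the other way, with 55.6 and 53.9 in Kupffer-like cells and 73.2 and 79.4 in the others (log2 -0.49, SE 0.11, adjusted p = 6.26e-05). The fit has only 2 libraries, each giving both sums, so few degrees of freedom remain per gene. Under other factors or without the filter, edgeR's adjusted p for Scd2 ran from 2.05e-27 to 2.63e-11, at log2 differences of 1.18 to 1.24. The sizes of these p-values are therefore a poor guide to the spread between libraries.

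By cluster, Acly was graded within the macrophage-like cells, as CPM of the cluster total. It held 305 and 193 in the cluster led by Cd163, 292 and 188 in that led by Marco, 193 and 91.3 in control cells and 135 and 144 in NASH cells of that led by Folr2, 92.9 and 61.4 in that led by Mmp12 and 46.6 and 47.5 in the NASH cells of that led by Cx3cr1. Control library 2, with 31 cells in the cluster led by Cx3cr1, held 49.9 there. In the clusters led by Cd163, Marco and Folr2 control library 1 lay above control library 2, a difference between libraries within each cluster. Fdps was highest in the cluster led by Mmp12, at 37.4 and 27.2. It held 19.7 and 12.99 in NASH cells of the cluster led by Folr2, next to 17.6 and 17.1 in those of the cluster led by Cx3cr1. In the NASH cells of these clusters, in the same order, Insig1 held 39.8 and 24.1, 23.8 and 19.1, and 21.6 and 12.7. Scd2 was also highest in the cluster led by Mmp12, at 130 and 98.7. Its NASH values were 87.1 and 69.9 in the cluster led by Folr2 and 50.6 and 33.8 in that led by Cx3cr1. These values by cluster are a description, with no test of their own.

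**Figure D3:**
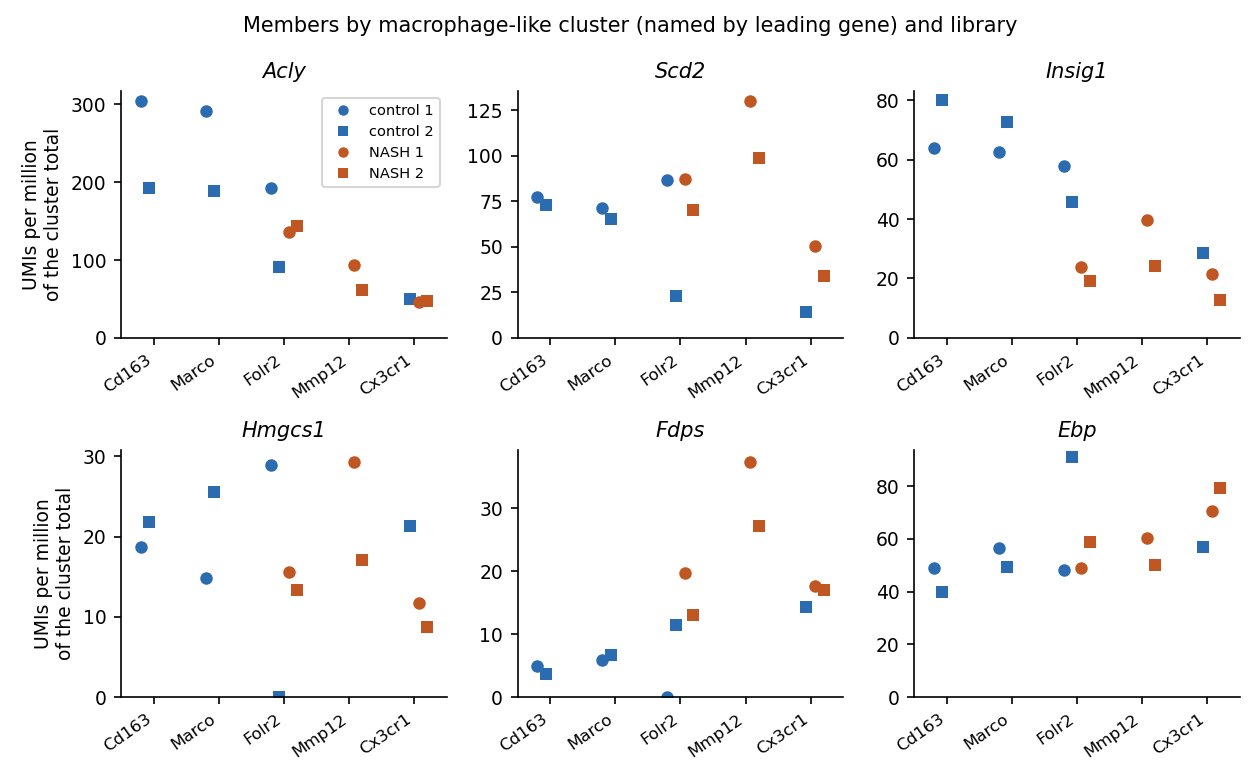
CPM of the cluster total for 6 members in 5 macrophage-like clusters, named by their leading gene, with 1 point per library that had at least 30 cells in the cluster (control blue, NASH orange). Acly is lowest in the NASH cells of the cluster led by Cx3cr1, Fdps and Scd2 peak in the cluster led by Mmp12, and Ebp in NASH cells is highest in the cluster led by Cx3cr1.

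The class of cells with the highest summed sterol synthesis level among the 7 tested classes was that of plasmacytoid dendritic cell-like cells, which are known for making type I interferon. Their 19 mevalonate arm and squalene-to-cholesterol genes summed to 630, 545, 765 and 715 CPM of the class total in control libraries 1 and 2 and NASH libraries 1 and 2. Macrophage-like cells of the same libraries held 171, 177, 248 and 218, and the other 5 tested classes held 127 to 389. All 4 plasmacytoid values lay above every value of the other 6 tested classes. Some classes too small to test came near. Cholangiocyte-like cells, 6 and 12 cells in NASH only, held 575 and 631, above the plasmacytoid value of control library 2. The hepatocyte-like cluster of control library 1 held 529, and plasma cell-like cells held 275 to 526. For the 10 fatty acid genes the order was reversed, with 145 to 167 in plasmacytoid dendritic cell-like cells and 215 to 483 in macrophage-like cells, and the groups did not overlap.

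**Figure D4:**
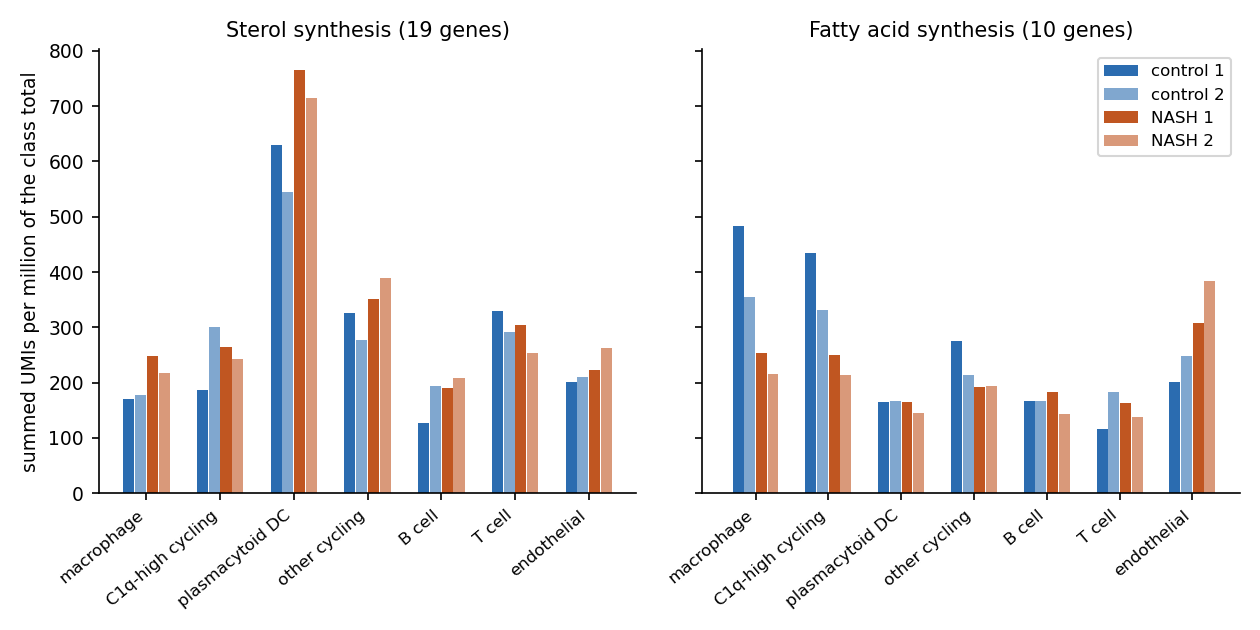
Summed CPM of the class total for the 19 sterol synthesis genes (left) and the 10 fatty acid synthesis genes (right) in the 7 classes with at least 10 cells in every library, with 1 bar per library. Sterol synthesis is highest in plasmacytoid dendritic cell-like cells of all 4 libraries, and fatty acid synthesis in macrophage-like cells stands at 483 and 356 in control and at 254 and 215 in NASH.

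Gene by gene, 19 of 30 tested members were higher in plasmacytoid dendritic cell-like than in macrophage-like cells with the library as block (63.3%) and 4 were lower (13.3%), where 18.1% of all 9483 genes tested were higher and 28.1% lower. The median log2 difference was 1.46 over the members and -0.18 over all genes. Of the regulators, Srebf2 was higher by a log2 of 1.58 (SE 0.27, adjusted p = 1.59e-05) and Scap by 1.80 (SE 0.27, adjusted p = 3.07e-06), and neither Insig gene passed. Srebf2 held 68.3, 74.4, 30.1 and 49.7 CPM in the 4 libraries and 20.9, 23.3, 16.9 and 12.3 in macrophage-like cells.

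Of the mevalonate arm, Fdps, Idi1, Mvd, Pmvk, Acat2 and Hmgcs1 were higher in plasmacytoid dendritic cell-like cells. Fdps held 144, 88.5, 132 and 141 CPM there and 4.71, 6.93, 25.6 and 19.04 in macrophage-like cells (log2 3.26, SE 0.43, adjusted p = 0.000169). Idi1 held 49.9, 28.2, 45.2 and 19.1 against 2.06, 6.56, 7.98 and 5.49 (log2 2.63, SE 0.40, adjusted p = 6.51e-06). Mvd, which decarboxylates mevalonate diphosphate, differed by a log2 of 2.02 (SE 0.35, adjusted p = 2.56e-05) and Pmvk by 1.81 (SE 0.24, adjusted p = 2.40e-07). In each of these genes every plasmacytoid value lay above the macrophage-like value of its library. Hmgcs1 (0.78, adjusted p = 0.0283) and Acat2 (1.46, adjusted p = 0.0494) were near the threshold.

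From squalene to cholesterol, 9 genes were higher. Sqle held 21.0, 15.4, 15.1 and 19.1 CPM, from 8, 12, 4 and 5 UMIs, where macrophage-like cells held 0, 0, 2.46 and 1.83. Sc5d, a sterol desaturase, held 36.8, 30.8, 49.0 and 65.0 against 7.66, 8.39, 8.90 and 5.13 (log2 2.51, SE 0.32, adjusted p = 1.87e-07). Hsd17b7 (log2 2.31, SE 0.80), Cyp51 (1.80, SE 0.38), Fdft1 (1.74, SE 0.48), Msmo1 (1.63, SE 0.27), Dhcr7 (1.46, SE 0.35), Nsdhl (1.32, SE 0.42) and Ebp (0.79, SE 0.21) followed, at adjusted p from 1.02e-05 to 0.0189. Hsd17b7 rests on 11 UMIs in these cells.

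The fatty acid genes were divided. Fads2, a desaturase of polyunsaturated fatty acids, held 13.1, 16.7, 33.9 and 11.5 CPM against 0.883, 0.729, 0.307 and 0.488 in macrophage-like cells (log2 4.84, SE 0.64, adjusted p = 3.03e-07). Elovl6, which lengthens palmitate, held 7.88, 15.4, 18.8 and 26.8 against 0.589, 1.82, 1.84 and 0.977 (log2 3.61, SE 0.57, adjusted p = 5.49e-06). Lower in plasmacytoid dendritic cell-like cells were Acly (log2 -1.91, SE 0.27, adjusted p = 9.53e-07), Scd2 (-1.50, SE 0.27, adjusted p = 3.52e-05), Fads1 (-1.35, SE 0.42, adjusted p = 0.00899) and Acsl3 (-2.50, SE 0.74, adjusted p = 0.00672). Acsl3, an acyl-CoA ligase, had 3 UMIs in all plasmacytoid cells.

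**Figure D5:**
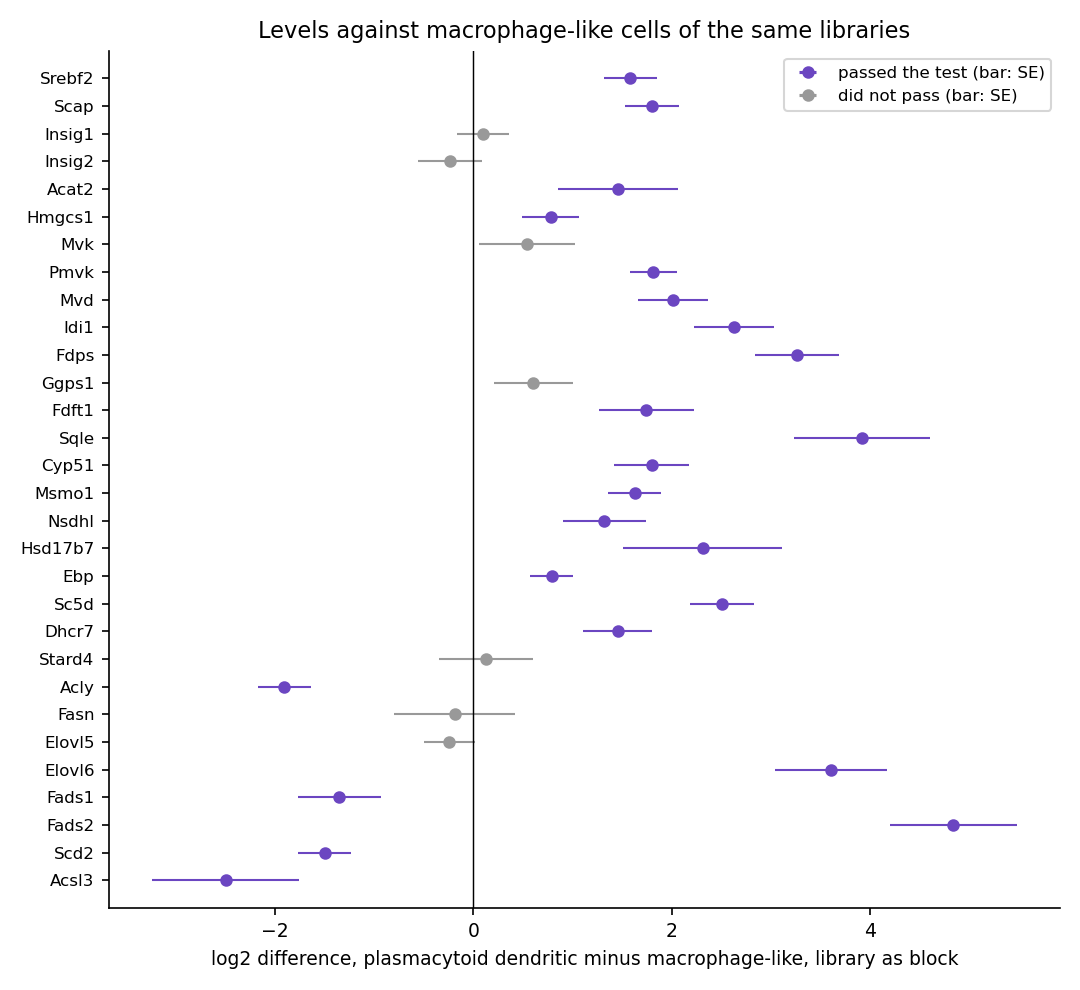
Log2 difference of the 30 tested members between plasmacytoid dendritic cell-like and macrophage-like cells of the same libraries, with SE bars and members past the test in purple. Sterol synthesis genes past the test lie right of 0 from Hmgcs1 and Ebp (0.78 and 0.79) to Sqle (3.92), and Acly, Fads1, Scd2 and Acsl3 lie left.

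Plasmacytoid dendritic cell-like cells numbered 75, 171, 48 and 51, with median UMI counts of 4661 to 5513 per cell. Their 13 fixed markers summed to 13172 to 13990 CPM, against 114 to 247 in macrophage-like cells. C1qa, C1qb and C1qc, the defining macrophage genes, summed to 291 to 799 in them and to 13192 to 19103 in macrophage-like cells, and hepatocyte genes without Trf summed to 1043 in control library 1 and to 105 to 153 in the others. Leaving out 1 library gave 15 to 18 members higher (48.4% to 56.2%) and 3 or 4 lower (9.68% to 12.9%). Of all genes, 12.5% to 17% were then higher and 21.9% to 27.5% lower. The Acat2 call was lost without any 1 of the 4 libraries (adjusted p = 0.0608 to 0.211), without the filter (0.0700) and with class totals without factors (0.0530). That of Hmgcs1 was lost without control library 1 (0.149), control library 2 (0.113) or NASH library 2 (0.0610) and without the filter (0.0626), and that of Hsd17b7 without control library 1 (0.143) or NASH library 2 (0.0767). Further calls lost were those of Nsdhl (0.185), Fdft1 (0.0559) and Acsl3 (0.0904) without control library 2.

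Between the diets, no member passed in plasmacytoid dendritic cell-like cells: of 14 tested 0 were higher and 0 lower by edgeR, where 0.284% and 2.18% of 3527 genes were, and 2 had an unadjusted p under 0.05. DESeq2 called 0 of the 10 members to which it gave an adjusted p. Fdps held 162 and 98.0 scaled CPM in control and 138 and 147 in NASH (log2 0.21, SE 0.26, adjusted p = 0.830), values that overlapped. Srebf2 lay below in both NASH libraries (31.5 and 51.7 against 76.5 and 82.4) and Dhcr7 above (35.4 and 51.7 against 14.7 and 15.6) without passing (adjusted p = 0.232 and 0.207).

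The diet difference of Fdps itself differed between the classes: it was smaller in plasmacytoid dendritic cell-like than in macrophage-like cells by a log2 of -2.05 (SE 0.40, adjusted p = 1.44e-05). Without control library 1 this call was lost (log2 -1.43, adjusted p = 0.0609). Sqle also passed this test of the difference (adjusted p = 0.0172), but its macrophage-like control cells had 0 UMIs, its fitted size is therefore no bound, and the call was lost without control library 1 (0.256), control library 2 (0.229) or NASH library 1 (0.103). Of 30 members tested these 2 were lower and none higher (6.67%), against 6.6% lower and 2.12% higher among all genes. In the other 5 classes no member's diet difference passed edgeR's test against that of macrophage-like cells. Of all genes, 3.47% were higher and 3.7% lower in this test for B cell-like, 0.352% and 0.523% for T cell-like, 0.228% and 0.259% for C1q-high cycling, 1.37% and 1.64% for endothelial-like and 0.674% and 1.45% for other cycling cells. Dhcr7 in cycling cells outside the C1q-high clusters came nearest, at a log2 of -3.01 (adjusted p = 0.105), and was the 1 call of this kind without control library 1.

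Across the other 5 classes with at least 10 cells in every library, 2 member differences between the diets passed. Insig2 was lower in NASH in C1q-high cycling cells, at 38.2 and 45.7 scaled CPM in control and 21.0 and 15.7 in NASH (log2 -1.19, SE 0.41, adjusted p = 0.0457). It was 1 of 12 members tested there (8.33%), where 10.3% of all genes were lower and 13.1% higher. The call was lost when any 1 library was left out (adjusted p = 0.105 to 0.375), and hepatocyte genes, with Insig2 abundant in the hepatocyte-like cluster, moved with it: without Trf they summed to 529 and 601 CPM in control and 188 and 128 in NASH. Their part in the difference was not tested. Scd2 was higher in NASH in endothelial-like cells, at 33.97 and 43.97 scaled CPM in control and 116 and 176 in NASH (log2 1.75, SE 0.44, adjusted p = 0.0212). It was 1 of 7 members tested (14.3%), where 4.45% of all genes were higher and 4.92% lower, and the call was lost without control library 1 (adjusted p = 0.0693). No member of the 3 tested in B cell-like cells passed edgeR's test, where 8.64% of all genes were higher and 6.36% lower, and 1 had an unadjusted p under 0.05. None of 2 in T cell-like cells passed (0.176% and 0.585% of all genes, 0 members at an unadjusted p under 0.05), and none of 7 in other cycling cells (1.04% and 1.68%, 1 member). DESeq2 called 0 members in B cell-like and T cell-like cells and gave none an adjusted p in other cycling cells.

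Against macrophage-like cells, 2 members stood lower in most of the other classes. Acly was lower in all 5, by log2 values of -0.46 in C1q-high cycling, -0.77 in B cell-like, -1.14 in T cell-like, -1.19 in other cycling and -1.30 in endothelial-like cells (adjusted p from 6.18e-05 to 0.0302). Insig1 was lower in 4 of them, by -0.94 to -1.81 (adjusted p from 3.81e-06 to 0.0480). Higher were Fdps and Srebf2 in other cycling cells (log2 1.93, SE 0.31, adjusted p = 8.65e-08, and log2 1.26, SE 0.32, adjusted p = 0.000552), Srebf2 in B cell-like cells (1.12, SE 0.34, adjusted p = 0.0108), Sc5d in T cell-like cells (1.91, SE 0.56, adjusted p = 0.00306, from 16 UMIs) and Ebp in C1q-high cycling cells (0.41, SE 0.13, adjusted p = 0.0101). Stard4 was higher in endothelial-like cells, at 85.1, 50.9, 34.7 and 40.5 CPM against 6.18, 13.5, 10.6 and 7.57 in macrophage-like cells (log2 2.04, SE 0.40, adjusted p = 7.56e-05), from 41 UMIs. The remaining calls were lower levels of Hmgcs1 and Fads1 in B cell-like, Fads1 and Scd2 in T cell-like and Cyp51 in C1q-high cycling cells. In these classes 1 or 2 of 24 to 27 members were higher (3.85% to 7.41%) and 1 to 4 lower (3.7% to 16.7%), against 11.5% to 18.7% and 14.1% to 22.9% of all genes. Every alternative kept the calls of Acly in T cell-like, endothelial-like and other cycling cells and of Stard4. With class totals without factors Acly was lost in C1q-high cycling and Insig1 in endothelial-like cells. With upper-quartile factors Acly was lost in B cell-like and Insig1 in endothelial-like cells. Ebp was lost without the filter or without either NASH library. Acly in B cell-like cells was lost without control library 1 or NASH library 2. Insig1 was lost without control library 1, control library 2 or NASH library 1 in both B cell-like and endothelial-like cells. In T cell-like cells Insig1 was lost without control library 2 and Sc5d without NASH library 2. Srebf2 in B cell-like cells was lost without NASH library 2 and with class totals without factors.

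Dendritic cell-like and monocyte-like cells had too few control cells for a test (6 and 22, and 4 and 10), so their levels are given for NASH only, as CPM of the class total. Dendritic cell-like cells held 347 and 280 for the 19 sterol synthesis genes and 98.7 and 101 for the 10 fatty acid genes. Pmvk stood at 82.6 and 97.6 and Idi1 at 45.0 and 20.1. By cluster, Pmvk was 134 and 167 in the dendritic cluster led by Fscn1, a gene of mature dendritic cells, and 48.2 and 62.0 in that led by Xcr1, a receptor of cross-presenting dendritic cells. Monocyte-like cells held 251 and 240 for sterol synthesis. Their Fdps stood at 22.6 and 17.5, next to 25.6 and 19.04 in macrophage-like cells of the same livers, a difference within the spread between the libraries. Their Mvd stood at 23.5 and 37.1 against 8.595 and 5.61 in macrophage-like cells.

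Upstream sequence was read for the members with a promoter window (250 bases before to 50 after the start) in the RefSeq table, build GRCm38.p6. Of the 34 members 28 were found, with 35 windows, while Fads1, Fdft1, Fdps, Scd2, Sqle and Stard4 are named only. The sterol regulatory element, searched as TCACNCCAC on both strands, was in the window of 1 member, Hmgcs1, and in 1.24% of all 32851 windows. The shorter form CACCCCAC, which the longer can contain, was in those of Hmgcs1 and Acat2 and in 2.87% of all windows. The NF-Y box CCAAT, on the other strand ATTGG, was in 23 of 35 member windows (65.7%) and in 37.4% of all windows. By gene it was found for 23 of 28 members (82.1%) and for 41.1% of all genes, where a gene with several windows has more chances of a match. These were 6 of 6 members that rose, 3 of 3 that fell and 14 of 19 that were not called. The groups are small, and a difference between them was not tested. A match describes the letters of the window and is no evidence of binding.

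The stretches below show the only member window with the sterol element and those of a member that fell and one that rose, each 5′ to 3′ on the gene's strand and cut before the annotated gene start: Hmgcs1, the member with the sterol element, not called between the diets (chr13:119690101-119690350, plus strand), Insig1, the regulator that fell (chr5:28071162-28071362, plus strand), and Ebp, a sterol enzyme that rose (chrX:8193513-8193762, minus strand). Capitals mark the sterol element (9 bases) and the NF-Y boxes.
Hmgcs1: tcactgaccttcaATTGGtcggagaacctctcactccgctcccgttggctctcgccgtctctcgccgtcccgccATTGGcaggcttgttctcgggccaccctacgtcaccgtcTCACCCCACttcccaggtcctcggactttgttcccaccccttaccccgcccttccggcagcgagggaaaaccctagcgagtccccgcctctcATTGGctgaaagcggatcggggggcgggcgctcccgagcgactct
Insig1: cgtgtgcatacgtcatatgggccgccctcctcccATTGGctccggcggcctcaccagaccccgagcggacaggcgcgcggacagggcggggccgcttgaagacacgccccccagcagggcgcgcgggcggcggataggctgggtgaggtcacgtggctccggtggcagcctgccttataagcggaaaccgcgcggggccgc
Ebp: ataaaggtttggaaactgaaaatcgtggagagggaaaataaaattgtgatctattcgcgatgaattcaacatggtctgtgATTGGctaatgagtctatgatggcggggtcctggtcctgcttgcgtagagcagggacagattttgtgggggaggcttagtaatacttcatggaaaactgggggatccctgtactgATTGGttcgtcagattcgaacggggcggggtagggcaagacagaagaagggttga
Hmgcs1 carries 3 NF-Y boxes beside its sterol element, Insig1 carries 1 and Ebp 2.

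The pattern of the sterol synthesis genes over 28 sums, those of 7 classes in 4 libraries, was matched among 5403 other genes by the correlation with their mean z-score. The 6 genes most like it were Mvb12a (Pearson r 0.86), Sec61g (0.86), Nr2c2ap (0.85), Paqr5 (0.83), Ccdc162 (0.83) and Atp2a1 (0.83). The 28 points share libraries and depth and include the high plasmacytoid values, so these are descriptions across sums that are not independent.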

How the data were processed

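Droplet single-cell RNA sequencing was done on 2 control and 2 NASH libraries. The authors deposited raw UMI counts per gene and barcode, made with Cell Ranger on mm10 per the submitters' processing notes, which also name Seurat. The sources used here do not state the settings, the annotation or the use of strand. Groups were taken from the diet labels. The members and lists were chosen with earlier results of these data known.

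Barcodes with at least 200 genes and at most 10% mitochondrial counts were kept, and putative doublets were removed by Scrublet score at 0.8% per 1000 barcodes. Cells were clustered with scanpy 1.11.5 (2000 variable genes, 30 principal components, 15 neighbours, Leiden resolution 1.0) with 75 genes left out, the members included. Classes were named from fixed markers and carry the ending -like, and differences from other work may come from these rebuilt names. The summed counts of each class in each library were tested, where every library had 10 or more cells of the class, with edgeR 4.0.16 (R 4.3.3, TMM factors, filterByExpr, quasi-likelihood test, Benjamini-Hochberg adjustment over all genes tested, threshold 0.05, two-sided). Levels between classes and within NASH used the library as block. DESeq2 1.42.0, other factors, no filter, each library left out, thinned cells (1000 UMIs), stricter filters and other clusterings were alternatives. Scripts were tested on simulated data. Coordinates are from GENCODE vM21 on GRCm38, in which 98.7% of the gene IDs were found.

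Full values are given for members past the threshold in macrophage-like cells and for the 3 most abundant of each role group, and elsewhere for members past the threshold. Further members, the genes named from other lists and the values by cluster were chosen after their values were seen. UMI counts come from the 3' end of transcripts and are not per length, so levels are compared within a gene only. In summed cells, fewer cells of a state and less RNA per cell cannot be told apart. A floor of 3 counts covers counting error only.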

Additional observations from a re-analysis of the deposited data

Results flagged for a closer look

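The 2 members Fdps and Sqle differed in their diet difference between cell classes by a test of the difference itself, edgeR's interaction term between diet and class. For Fdps the diet difference in plasmacytoid dendritic cell-like cells was below that in macrophage-like cells (adjusted p = 1.44e-05), and for Sqle likewise (adjusted p = 0.0172). Sqle had 0 UMIs in macrophage-like control cells. These 2 are 6.67% of the 30 members tested, near the 6.6% of all genes that were lower in this test. The Fdps difference was lost without control library 1, and that of Sqle without any 1 of control library 1, control library 2 and NASH library 1.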

How the results depend on the processing

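Over single members and alternatives, 575 values kept their direction and side of the threshold, 69 lost their call, 6 gained one and 39 changed direction. Levels against macrophage-like cells are in this tally for plasmacytoid dendritic cell-like cells only. The cause was not tested unless stated. In macrophage-like cells, 8 members were higher and 3 lower. The counts were 3 and 6 with class totals without factors, and 0 and 0 within the cluster led by Folr2 alone and within that led by Cx3cr1 alone, where fewer cells and members were tested. Thinning to 1000 UMIs per cell left 15 members to test, with 5 higher (33.3%) and 2 lower (13.3%), against 19.5% and 15.7% of all genes. Leaving out 1 library gave 4 to 9 higher and 2 to 3 lower. In the other classes the 2 calls became 1 without the filter and 5 with class totals without factors, and 1 to 3 with 1 library left out. DESeq2 gave neither of these 2 an adjusted p. With 1 library left out there were 1 to 2 interaction calls. Without control library 1 neither Fdps nor Sqle was among them, and the 1 call was Dhcr7 in other cycling cells. Without control library 2 or NASH library 1 the call of Sqle was lost and that of Fdps was kept.

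With the replicate number as a block, 8 members were higher and 3 lower in macrophage-like cells (27.6% and 10.3%), against 23.2% and 21.2% of all genes. The other classes then had 1 call, that of Insig2 being lost. Same-numbered libraries did not deviate together (correlation -0.02 in macrophage-like cells), so nothing shows that the numbers pair the libraries. In other cycling cells (-0.12) the crossed pairing, chosen after seeing the data, gave 45 higher and 70 lower genes against 56 and 86 with the block.

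Log2 diet differences that changed sign in macrophage-like cells, none past the threshold under that alternative, were as follows. Hmgcs1 was 0.017 with DESeq2, 0.042 without the filter, 0.17 without control library 2, 0.28 without NASH library 2, 0.18 thinned, 0.28 with the stricter cell filter and 0.24 in Kupffer-like clusters. Fads1 was 0.0095 without the filter, 0.08 without control library 2, 0.11 without NASH library 2, 0.012 thinned, 0.36 with the stricter filter and 0.081 in Kupffer-like clusters. Scap was 0.0064 without control library 1, 0.0030 without NASH library 1, 0.051 thinned and 0.091 in Kupffer-like clusters. Acat2 was -0.28 with class totals, -0.03 without control library 2, -0.27 without NASH library 1 and -0.26 with the stricter filter. Sc5d was -0.21 with class totals, -0.27 without NASH library 1, -0.41 with the stricter filter and -0.17 in the cluster led by Cx3cr1. Lss was -0.27 with class totals, -0.43 without control library 2 and -0.10 without NASH library 1. Stard4 was -0.092 with class totals, -0.21 without control library 1 and -0.25 thinned. Acaca was -0.045 with class totals, and Srebf2 was 0.014 without NASH library 2. Within the cluster led by Cx3cr1 Srebf2 was 1.75, Nsdhl -0.26 and Mvd -1.45, and within that led by Folr2 Insig2 was 0.53, Ebp -0.33 and Ggps1 -1.10.

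With 1 library left out in turn, the differences ranged from -0.34 to 0.28 for Hmgcs1, -0.43 to 1.15 for Lss, -0.27 to 0.55 for Sc5d, -0.27 to 0.45 for Acat2, -0.47 to 0.014 for Srebf2, -0.18 to 0.0064 for Scap, -0.21 to 0.91 for Stard4 and -0.20 to 0.11 for Fads1.

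Depth limits the rarest members: Sqle, Hsd17b7, Elovl6, Fads2 and Me1 did not pass the filter on low counts in macrophage-like cells. Without that filter Sqle and Idi1 were called higher there. Class totals without factors and the fits within clusters were added after seeing the data.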
